A study of Mus musculus with 4 samples.

Results

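The platelet-derived growth factor (PDGF) family was described here across the cells of the mouse incisor: the 4 ligand genes Pdgfa, Pdgfb, Pdgfc and Pdgfd and the 2 receptor genes Pdgfra and Pdgfrb. These 6 genes were taken by symbol from the 32285 genes of the single-cell RNA sequencing matrices, and all 6 were found. The proximal tissue of lower incisors of mice at postnatal day 15 was sequenced as 4 libraries, with replicates 1 and 2 for each genotype (WT and Din-KO). Din is a predicted gene (4930453N24Rik), and the Din-KO mice carried a tm1b allele in every cell, in which a germline Cre had removed exon 2 and left a LacZ reporter. WT mice carried no such allele, and no treatment was given to either group. The sources used here do not give the number or sex of the mice behind each library, so the p-values below measure only the spread between libraries.

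Of 20502 barcodes, 11310 cells passed the study's filters, from 1272 cells in Din-KO replicate 2 to 4575 in Din-KO replicate 1, with median depths of 8016 to 11587.5 UMIs (unique molecular identifiers, each 1 captured transcript) per cell. Pairs of libraries shared 0 to 4 kept barcodes. Of mesenchyme-like cells, those with a UMI of a Y-linked gene and at most 1 Xist UMI made up 42.9% and 43.4% in the Din-KO libraries and 0% in both WT libraries. Those with 3 or more Xist UMIs and none of a Y-linked gene made up 36.5% and 45.7% in the Din-KO and 98.3% and 95.2% in the WT libraries, so sex differed with genotype, and genotypes were also compared within the Xist cells. The libraries also differed in make-up: dental pulp-like cells numbered 1923 and 2242 in replicates 1 of WT and Din-KO but 272 and 208 in replicates 2, whereas dental follicle-like cells numbered 333 and 363 in replicates 1 and 424 and 307 in replicates 2. The Din gene itself gave 36.5, 23.1, 28.9 and 28.6 CPM (counts of a gene per 1000000 UMIs) in mesenchyme-like cells, WT before Din-KO and replicates 1 before replicates 2. Where these 3′ reads lie against the removed exon was not examined, so the values do not check the labels.

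PDGF ligands are secreted dimers that bind a pair of receptor tyrosine kinases. PDGF receptor alpha binds PDGF-A, -B and -C chains, whereas PDGF receptor beta binds chiefly PDGF-B and PDGF-D. PDGF-B made by endothelium recruits mural cells (pericytes and vascular smooth muscle) that carry the beta receptor, and PDGF-A made by epithelia acts on mesenchyme that carries the alpha receptor, an arrangement found in many developing organs including teeth. PDGF-C and PDGF-D are secreted with a CUB domain that proteases must cut off before they can bind. In GRCm38, Pdgfa lies at chr5:138976014-138997370 and Pdgfb at chr15:79995874-80014977, both on the minus strand. Pdgfc (chr3:81036416-81214040), Pdgfd (chr9:6168584-6378850), Pdgfra (chr5:75152292-75198215) and Pdgfrb (chr18:61045150-61085061) lie on the plus strand. All but Pdgfrb overlap an annotated gene on the opposite strand, and a microRNA gene lies within Pdgfb and Pdgfra on the same strand. The sources used here do not say how strand entered the counting.

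Cells were grouped into 32 clusters on other genes, with the 6 PDGF genes held out, and clusters were named from marker lists, so a class such as "endothelium-like" is a cluster or group of clusters led by such markers. A level is the CPM of the UMIs summed over the cells of a class in 1 library. Values are given for the replicates 1 of WT and Din-KO and then for their replicates 2, in that order, unless stated. Capture of the 3′ end can differ between genes, so levels were compared between classes for 1 gene, and between genes only as a ratio. Of 78 pairs of a member and a class, 30 had a mean level of at least 20 CPM.

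**Figure D1:**
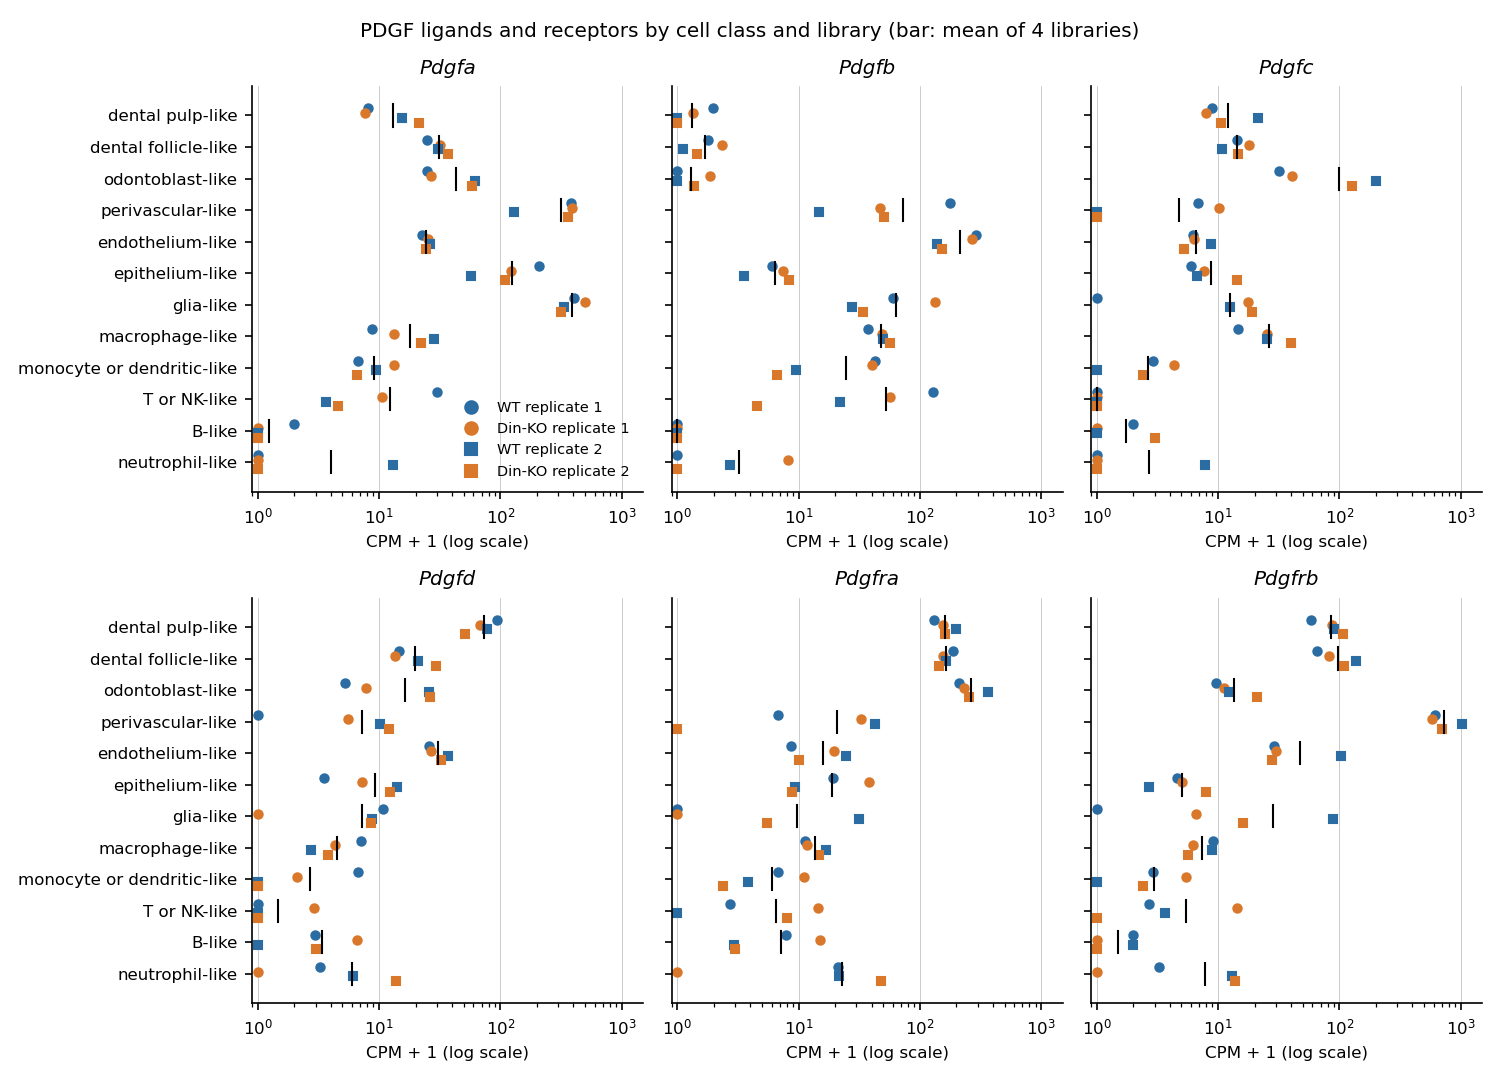
Level of each PDGF ligand and receptor gene (x axis, CPM + 1 on a log scale) in each cell class (y axis). Each point is 1 library, colored by genotype, and the bar is the mean of the 4 libraries. Pdgfb points are highest in endothelium-like cells (138 to 287 CPM), Pdgfrb points in perivascular-like cells (584 to 1018 CPM), and Pdgfra points are above 100 CPM in the dental pulp-, dental follicle- and odontoblast-like classes alone.

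Pdgfb, which encodes the chain that attracts mural cells, was chiefly an endothelial transcript. Its level in endothelium-like cells was 287, 269, 138 and 151 CPM (211 ± 77.8, SD, n = 4 libraries), from 930, 1104, 197 and 251 UMIs. Both libraries of replicate 1 were higher than both of replicate 2, with no order by genotype. In mesenchyme-like cells only 22, 16, 1 and 4 Pdgfb UMIs were counted, and B-like cells had none. Endothelium-like cells held 68.5% ± 2.86 of all Pdgfb UMIs of the kept cells, unnamed clusters included (SD, n = 4 libraries), and macrophage-like cells 18.4% ± 4.12.

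Within endothelium, Pdgfb varied by cluster. The cluster led by the arterial gene Gja4 and by Cldn5 (153 cells) had Pdgfb at 509, 447, 272 and 282 CPM. The cluster led by Gpihbp1, a gene of capillary endothelium, and Aplnr had 246, 248, 91.2 and 152 CPM, and the one led by Vwf had 89.3, 99.0, 84.4 and 43.9 CPM. The Gja4 cluster was therefore the highest of the 3 in each of the 4 libraries, a ranking of clusters that share libraries and is given without a test.

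Lower Pdgfb levels were measured outside the endothelium. Macrophage-like cells had 36.3, 47.8, 49.2 and 55.3 CPM (47.1 ± 7.94), the steadiest of these values across libraries. In perivascular-like cells Pdgfb was 175, 45.7, 13.8 and 49.8 CPM from only 30, 10, 3 and 9 UMIs, and in glia-like cells 58.8, 133, 26.9 and 33.3 CPM. The T or NK-like cells ranged from 3.55 to 127 CPM on 1 to 74 UMIs. Cells of that class with mast cell transcripts held 1 of the 74 UMIs in WT replicate 1 and none in the other libraries. The level in monocyte or dendritic-like cells was 42.1, 39.0, 8.53 and 5.63 CPM, and in epithelium-like cells it was 5.35 ± 2.10 CPM (n = 4).

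Pdgfa, whose product binds the alpha receptor, had several sources. The highest levels were in glia-like cells, at 402, 494, 334 and 315 CPM (386 ± 81.2), and in perivascular-like cells, at 379, 388, 129 and 360 CPM (314 ± 124). These ranges overlapped, and both classes were small, with 14 to 45 and 10 to 26 cells per library. Epithelium-like cells followed at 206, 121, 56.8 and 108 CPM (123 ± 61.9). Dental follicle-like cells had 24.1, 30.9, 29.4 and 36.4 CPM and dental pulp-like cells 7.05, 6.67, 14.4 and 20.2 CPM, ranges that did not meet. Clusters were less distinct, with means of 22.1, 29.1 and 59.2 CPM in the follicle clusters led by Sfrp2, Bmp3 and Spp1. The pulp cluster led by Tac1 had 21.9 CPM and the other pulp clusters 4.27 to 13.9 CPM. B-like cells gave 1 Pdgfa UMI in all 4 libraries together.

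The spread of Pdgfa between epithelial libraries went with the clusters they held. The cluster led by Shh, a signaling gene of the developing dental epithelium (331 cells), had Pdgfa at 258, 189, 195 and 223 CPM. The cluster led by the enamel matrix genes Amelx and Enam (247 cells) had 55.5, 30.6, 35.3 and 30.5 CPM, below the former in every library. The Shh cluster made up 122 of 145 epithelium-like cells in WT replicate 1 and 32 of 121 in WT replicate 2. Glia-like cells split in the same way, with Pdgfa at 514 to 808 CPM in the cluster led by Scn7a (59 cells) and 65.7 to 222 CPM in that led by the myelin gene Mbp (35 cells).

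By share of UMIs rather than by level, Pdgfa came mainly from epithelium-like cells (37.5% ± 11.5 of the UMIs of the kept cells, SD, n = 4 libraries) and mesenchyme-like cells (36.5% ± 13.3). Only the means were similar: over libraries the share ranged from 22.4% to 50.3% for epithelium-like and from 26.2% to 55.7% for mesenchyme-like cells. Glia-like cells contributed 9.13% ± 5.41 and perivascular-like cells 5.12% ± 1.45. Such shares depend on how many cells of each class were recovered.

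Pdgfc was highest in odontoblast-like cells, at 30.6, 39.8, 199 and 127 CPM (99.1 ± 79.5). Both libraries of replicate 2 were above both of replicate 1. The cluster led by Bglap and Dspp, genes of the dentin matrix, had Pdgfc at 98.9, 143, 265 and 235 CPM, whereas that led by Dkk1, Dmp1 and Ifitm5 had 22.6, 22.1, 82.8 and 57.6 CPM. The Bglap cluster held 9, 16, 65 and 43 of the 70, 94, 107 and 87 odontoblast-like cells, and Dspp in the class moved likewise, at 358, 859, 7269 and 4149 CPM. Outside odontoblast-like cells Pdgfc was 13.7, 24.1, 24.6 and 38.7 CPM in macrophage-like cells and 13.3, 16.9, 9.71 and 13.6 CPM in dental follicle-like cells. T or NK-like cells had no Pdgfc UMI.

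Pdgfd, the ligand of the beta receptor that needs proteolytic activation, was highest in dental pulp-like cells, at 93.1, 67.3, 76.4 and 50.04 CPM (71.7 ± 18.0). All 4 values were above those of the next class, endothelium-like cells, at 25.0, 25.6, 35.8 and 31.2 CPM. Dental follicle-like cells had 13.5, 12.6, 20.01 and 28.5 CPM and odontoblast-like cells 4.29, 6.84, 24.7 and 25.1 CPM. Among pulp clusters the mean Pdgfd level over libraries was 143 CPM in that led by Stc2 and Apod, 116 in that led by Cldn10, 105 in that led by Vcan, 42.6 in that led by Pdlim3, 29.5 in that led by Tac1 and 22.6 in that led by Smoc2. Mesenchyme-like cells held 79.0% ± 3.20 of Pdgfd UMIs (n = 4 libraries).

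Pdgfra, the alpha receptor gene, was found mainly in the mesenchyme. Its level was 208, 228, 361 and 255 CPM in odontoblast-like cells (263 ± 68.0), 187, 155, 164 and 144 CPM in dental follicle-like cells (163 ± 18.4) and 129, 154, 198 and 160 CPM in dental pulp-like cells (160 ± 28.5). The follicle and pulp ranges overlapped, whereas every odontoblast value was above every follicle value. Outside the mesenchyme the highest value of a class in any library was 46.6 CPM, in neutrophil-like cells of Din-KO replicate 2 on 11 UMIs. Some single clusters reached more in a library, up to 114 CPM in the macrophage-like cluster led by Ccl2. The epithelial cluster led by Shh reached 59.2 CPM, with a mean of 32.2 CPM. Mesenchyme-like cells held 91.7% ± 3.69 of all Pdgfra UMIs of the kept cells (n = 4 libraries).

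Perivascular-like cells, in which Rgs5, a pericyte gene, stood at 10760 to 16111 CPM, gave 1, 7, 9 and 0 Pdgfra UMIs. The 0 in Din-KO replicate 2 came from 10 cells and 180572 UMIs and allows a level of up to 16.6 CPM by counting error. In macrophage-like cells the few Pdgfra and Pdgfrb UMIs lay mostly in 1 cluster of 138 cells with high UMI counts led by Ccl2 and Pf4 (means of 72.2 and 30.6 CPM) and not in the large cluster led by C1qa (2.05 and 1.97 CPM).

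Pdgfrb, the beta receptor gene, was highest in perivascular-like cells, at 619, 584, 1018 and 698 CPM (730 ± 198), from 106, 128, 221 and 126 UMIs. All 4 values were above those of the next class, dental follicle-like cells, at 63.9, 80.6, 136 and 108 CPM (97.0 ± 31.7). Dental pulp-like cells had 57.0, 86.1, 89.8 and 107 CPM (84.9 ± 20.6), which overlapped the follicle values. In odontoblast-like cells it was 8.57, 10.3, 11.3 and 19.8 CPM. By share of UMIs the order was the reverse of the level, since perivascular-like cells were few: mesenchyme-like cells held 80.7% ± 1.86 of Pdgfrb UMIs and perivascular-like cells 8.11% ± 2.68 (n = 4 libraries).

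Endothelium-like cells had Pdgfrb at 27.8, 29.0, 102 and 27.0 CPM, so WT replicate 2 stood apart. In that library the 10 perivascular markers summed to 2112 CPM in endothelium-like cells, against 703 to 805 CPM in the other libraries, and Rgs5 was 1460 CPM against 371 to 424. The 10 mesenchyme markers summed to 3836 CPM against 566 to 882. The part of these in the Pdgfrb level was not tested. Pdgfrb in the Gja4 cluster was 84.2, 72.5, 345 and 104 CPM, higher in every library than in the Gpihbp1 cluster, where it ranged from 9.26 to 16.3 CPM.

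**Figure D2:**
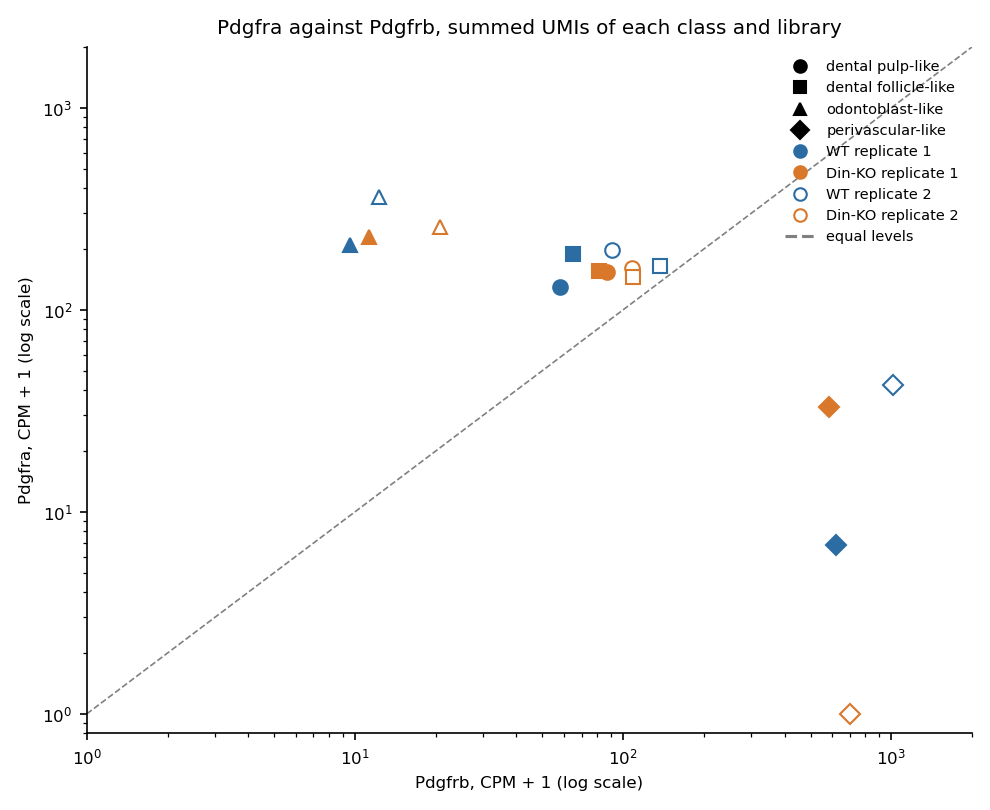
Pdgfra level (y axis, CPM + 1) against Pdgfrb level (x axis, CPM + 1), both on log scales, for the summed cells of each class and library. Shape gives the class, color the genotype and filled or open marks the replicate, and the dashed line marks equal levels. Dental pulp-like and follicle-like points lie together just above the line, odontoblast-like points at a Pdgfra level of 208 to 361 CPM and a Pdgfrb level of 8.57 to 19.8 CPM, and perivascular-like points far below the line.

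The use of one receptor against the other was compared as the ratio of Pdgfra to Pdgfrb UMIs in the same cells, which needs no scaling between libraries. In all mesenchyme-like cells it was 2.70, 2.10, 2.09 and 1.97. Dental pulp-like cells had 2.26, 1.78, 2.20 and 1.497, and dental follicle-like cells 2.94, 1.93, 1.20 and 1.34. In odontoblast-like cells the ratio was 24.2, 22.3, 31.9 and 12.9, and in perivascular-like cells it was 0.0094, 0.055, 0.041 and 0 (0 of 126 receptor UMIs). Odontoblast-like cells were thus above pulp and follicle in every library, and perivascular-like cells below all of them.

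Within a library, the log2 ratio in odontoblast-like cells exceeded that in dental pulp-like cells by 3.51 ± 0.32 (SD, n = 4 libraries, range 3.104 to 3.86), in 4 of 4 libraries. A two-sided exact permutation test over the 4 paired libraries gave p = 0.125, the smallest that 4 pairs allow. The difference from dental follicle-like cells was 3.64 ± 0.75, in 4 of 4 libraries (exact permutation p = 0.125). Between follicle and pulp the log2 ratio differed by -0.14 ± 0.54, with 2 of 4 libraries in each direction (exact permutation p = 0.75). Clustering at a resolution of 0.5, which moved further cells into the odontoblast-like class, lowered its mean log2 ratio from 4.44 to 2.97.

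Pulp-like cells were not uniform in this ratio. In the cluster led by Cldn10 the log2 ratio was 0.76, 0.45, -0.03 and -1.18, so Pdgfrb UMIs reached or passed Pdgfra UMIs in replicates 2. In the cluster led by Vcan it was 1.68, 1.48, 1.51 and 1.34, and in that led by Tac1 it was 2.35, 0.96, 2.15 and 1.18. The last pair of clusters had more Pdgfra than Pdgfrb in all 4 libraries. The cluster led by Pdlim3 had the highest mean Pdgfrb level of the pulp clusters (212 CPM), and its log2 ratio was 0.21, -0.71, 1.46 and -1.55, with as few as 4 cells in a library. In the cluster led by Stc2 it was 0.84, 0.51, 0 and 2, with as few as 5 cells. The highest mean Pdgfra level of the pulp clusters was that of the Smoc2 cluster (295 CPM), with Pdgfrb at 138 CPM and a log2 ratio of 0.75 to 1.22.

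**Figure D3:**
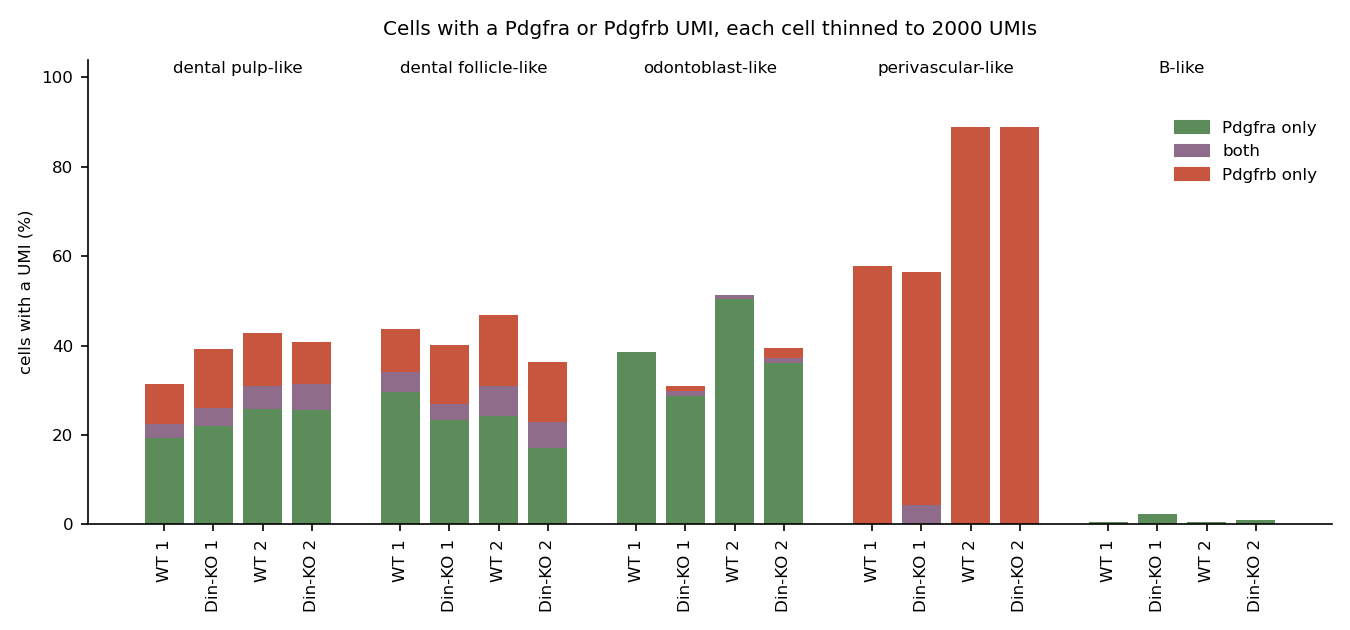
Share of cells (y axis, %) with a UMI of Pdgfra alone, of both receptors or of Pdgfrb alone, in each class and library (x axis), after each cell was thinned to 2000 UMIs. At this depth, cells with Pdgfra alone are the largest of these shares in the mesenchymal classes (means of 23.2% to 38.5%). Cells with Pdgfrb alone are the largest in perivascular-like cells (71.9%). B-like cells show the background of that class alone.

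The receptor shares of single cells differed between classes in the same direction. With every cell thinned to 2000 UMIs, so that depth did not differ, 23.2% ± 3.09 of dental pulp-like cells had a Pdgfra UMI alone, 10.7% ± 2.01 a Pdgfrb UMI alone and 4.60% ± 1.18 both (SD, n = 4 libraries). Dental follicle-like cells gave 23.5% ± 5.13, 13.1% ± 2.57 and 5.22% ± 1.45. In odontoblast-like cells 38.5% ± 9.03 had Pdgfra alone, 0.85% ± 1.11 had Pdgfrb alone and 0.79% ± 0.54 had both. In perivascular-like cells 71.9% ± 19.7 had Pdgfrb alone and no cell had Pdgfra alone.

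B-like cells, which should lack both receptors, had a Pdgfra UMI in 1.07% ± 0.81 of thinned cells and no Pdgfrb UMI, at unthinned median depths of 2579 to 3550 UMIs. Their mean Pdgfra and Pdgfrb levels were 6.18 and 0.49 CPM, against 21.9 and 6.75 CPM in neutrophil-like cells. The background in other classes may thus be higher than in B-like cells. Cells with both receptors were about as frequent as the product of the single shares within each library gives, at 4.30% for pulp and 5.21% for follicle. Without thinning, both receptors were seen in 36.4% ± 14.2 of pulp-like, 54.2% ± 11.6 of follicle-like and 18.9% ± 5.39 of odontoblast-like cells, so the share with both rose with depth. Pdgfra alone was then seen in 32.2% ± 5.85, 24.3% ± 9.48 and 71.8% ± 6.06. In pulp and follicle, cells with both were thus the larger mean share at full depth. Ligand shares differed in the same way between classes. Thinned endothelium-like cells had a Pdgfb UMI in 30.7% ± 13.6 (65.4% ± 13.6 unthinned) and thinned glia-like cells a Pdgfa UMI in 56.2% ± 7.63 (84.2% ± 6.67 unthinned), against 0% in thinned B-like cells for either gene.

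The differences between classes were tested by edgeR's quasi-likelihood test on UMI sums, with the library as a block, over all genes that passed a filter on low counts, and p-values were adjusted by Benjamini-Hochberg over them. The call was an adjusted p under 0.05. The classes were built on the same cells, though without these genes, so the tests ask whether the members differ between cells that other genes separated.

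Perivascular-like cells had more Pdgfrb than mesenchyme-like cells (log2 fold change 3.07 ± 0.17, SE, 8.37-fold, adjusted p = 9.7e-12, edgeR). Pdgfa was 12.9-fold higher (log2 3.69 ± 0.35) and Pdgfra lower (log2 -3.20 ± 0.36, adjusted p = 5.7e-07). Pdgfb was also higher, at log2 6.95 ± 0.62, Pdgfd lower at -2.96 ± 0.50, and Pdgfc lower at -2.91 ± 0.74 (adjusted p = 0.0063). Thus all 6 members passed, where 17.3% of 12662 genes did. The Pdgfb value rested on 52 perivascular UMIs and a level near 0 in mesenchyme, and its call was kept in 12 of 12 alternative settings. The Pdgfc call rested on 3 perivascular UMIs, and was lost in 3 of 12 alternative settings of the processing. One of these was the fit without WT replicate 2 (log2 -1.98, adjusted p = 0.091, edgeR). Without Din-KO replicate 1 the log2 value of Pdgfc was -4.37.

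Endothelium-like cells had Pdgfb higher than mesenchyme-like cells by log2 8.75 ± 0.23 (430-fold, adjusted p = 2.0e-07). Pdgfra was lower by log2 -3.60 ± 0.22 and Pdgfc by -1.89 ± 0.35. Pdgfrb was lower by log2 -0.98 ± 0.24 (adjusted p = 0.010, edgeR), and by -1.79 without the cells of highest doublet score and -2.47 in thinned cells. The smallest value over 12 alternative settings was -0.78, and 1 of the 12 lost the call. Pdgfd was lower by log2 -0.69 ± 0.23 (adjusted p = 0.035, edgeR), but lost its call in 4 of 12 alternative settings. Among these were the fits without WT replicate 1 (-0.41, adjusted p = 0.11) and without Din-KO replicate 1 (-0.66, adjusted p = 0.11). Pdgfa was 0.19 ± 0.28 (adjusted p = 0.59). The 5 members of 6 that passed are to be set against 57.2% of 13558 genes.

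Epithelium-like cells had 6.62-fold more Pdgfa than mesenchyme-like cells (log2 2.73 ± 0.48, adjusted p = 0.0063, edgeR). Both receptors were lower, Pdgfrb by log2 -3.95 ± 0.28 and Pdgfra by -3.15 ± 0.41. Pdgfb was higher (log2 3.83 ± 0.53) from a level near 0 in mesenchyme, and Pdgfc and Pdgfd were lower (-1.26 ± 0.29 and -2.09 ± 0.58). All 6 members passed, where 36.5% of 13294 genes did. Pdgfd lost its call without Din-KO replicate 1 (adjusted p = 0.13, edgeR) or Din-KO replicate 2 (0.057) and moved to -1.50 without WT replicate 1. Pdgfc lost its call in 2 of 11 alternative settings, among them that without Din-KO replicate 2 (adjusted p = 0.063, edgeR).

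**Figure D4:**
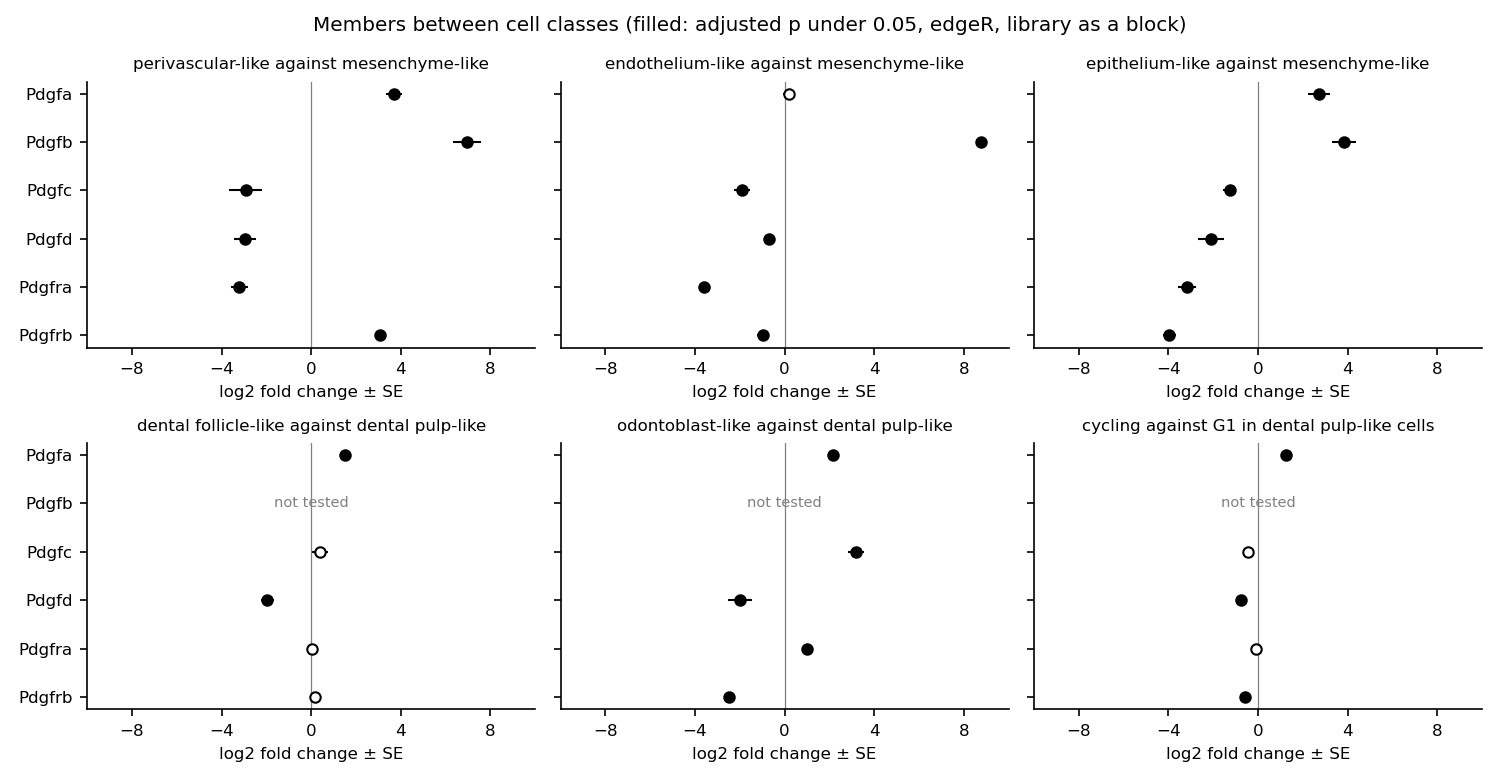
log2 fold change (x axis) of each member (y axis) in 6 contrasts between classes, with SE bars, from edgeR with the library as a block. Filled points passed an adjusted p of 0.05. Pdgfb lies far to the right in the endothelium-like panel (8.75), and Pdgfra and Pdgfrb lie on opposite sides of 0 in the perivascular-like panel (-3.20 and 3.07) and the odontoblast-like panel (1.02 and -2.47).

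Within the mesenchyme, 2 ligands differed between follicle and pulp, and neither receptor passed the test. Pdgfa was 2.84-fold higher in dental follicle-like than in dental pulp-like cells (log2 1.51 ± 0.23, adjusted p = 0.0021, edgeR), and Pdgfd was lower by log2 -1.96 ± 0.29 (adjusted p = 0.0021). Pdgfra was 0.05 ± 0.13 (adjusted p = 0.79) and Pdgfrb 0.18 ± 0.13 (adjusted p = 0.32). Pdgfc was 0.40 ± 0.35 (adjusted p = 0.42), and passed without WT replicate 2 (0.88, adjusted p = 0.022). In this contrast 36% of 12838 genes passed, close to the 2 of 5 tested members. Pdgfb had too few UMIs to be tested here and in the next contrasts.

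Odontoblast-like cells had 9.09-fold more Pdgfc (log2 3.18 ± 0.34), 4.43-fold more Pdgfa (2.15 ± 0.17) and 2.03-fold more Pdgfra (1.02 ± 0.14) than dental pulp-like cells. Pdgfrb was lower by log2 -2.47 ± 0.18 and Pdgfd by -1.99 ± 0.55 (adjusted p = 0.033, edgeR). All 5 tested members passed, where 34.5% of 11177 genes did. With clusters at a resolution of 0.5 the Pdgfra value was 0.37 and the Pdgfc value 2.23. Pdgfd lost its call without WT replicate 1 (adjusted p = 0.052) or Din-KO replicate 1 (0.13).

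Pdgfrb is used as a label of cycling (transit-amplifying) cells of the incisor, so cycling dental pulp-like cells (S or G2M phase by score) were compared with those in G1. A cluster of 156 mesenchyme-like cells led by histone genes was assigned to no part of the mesenchyme and was not in this comparison. Its mean levels were 34.9 CPM for Pdgfrb and 114 CPM for Pdgfra. Pdgfa was 2.37-fold higher in cycling cells (log2 1.24 ± 0.19), and Pdgfrb and Pdgfd were lower, by -0.59 ± 0.11 and -0.76 ± 0.11. Pdgfra was -0.10 and Pdgfc -0.43, neither past the threshold. Here 3 of 5 tested members passed, and 33.5% of 11620 genes. Mki67 and Top2a, proliferation genes that are part of the score, were 60.3 to 165 and 118 to 221 CPM in cycling cells and 0.76 to 4.30 and 1.43 to 5.62 CPM in G1 cells. Their difference follows from how the phases were set and does not check them. The Pdgfrb call was lost in 3 of 12 alternative settings. Among these were clusters at a resolution of 0.5 (-0.18, adjusted p = 0.27, edgeR) and thinned cells (-0.33, adjusted p = 0.10, edgeR). The Pdgfa call was lost in 1 of 11.

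The phases were spread unevenly over the pulp clusters, which themselves differed in these genes. Cycling cells made up 63.1% of the cluster led by Tac1, 41.0% of that led by Smoc2 and 25.9% of that led by Vcan, but 9.10% of that led by Cldn10, 10.8% of that led by Stc2 and 6.02% of that led by Pdlim3. Within the Tac1 cluster, the only one with at least 20 cells of each phase in every library, log2(CPM + 1) of cycling minus G1 cells was 0.20 ± 0.37 for Pdgfa (SD, n = 4 libraries, higher in 3) and -0.065 ± 0.44 for Pdgfrb (lower in 2). It was -0.38 ± 0.35 for Pdgfd (lower in 3), and -0.72 ± 0.10 for Pdgfc and -0.47 ± 0.21 for Pdgfra, each lower in all 4. Over all pulp-like cells the same measure was 0.99 ± 0.37 for Pdgfa, -0.73 ± 0.36 for Pdgfrb and -0.96 ± 0.35 for Pdgfd, so for these 3 genes the mean within the cluster was nearer to 0. For Pdgfc and Pdgfra it was -0.41 ± 0.28 and -0.22 ± 0.20 over all pulp-like cells, so their means within the cluster were further from 0.

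Genes that act on PDGF ligands were read against the share of all genes that passed in each contrast. Of 15 genes of ligand processing and binding, 8 were higher and 2 lower of 13 tested in follicle against pulp (36% of all genes passed), with a median log2 value of 0.81 against -0.01 over all genes. They included A2m, a protease inhibitor that binds PDGF (6.12 ± 0.45, SE), Sparc and Thbs1, matrix proteins that bind PDGF (2.27 ± 0.27 and 2.15 ± 0.11), and the co-receptor Nrp1 (1.91 ± 0.22). In odontoblast-like against pulp-like cells 6 were higher and 2 lower of 12 (34.5% of all genes, median 1.06 against -0.04 over all genes), among them Thbs1 (3.94 ± 0.54), Sparc (3.35 ± 0.56) and the proprotein convertase genes Pcsk5 and Pcsk6 (2.11 ± 0.19 and 1.93 ± 0.36).

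Beside the vessels, Nrp1 was higher in perivascular-like and in endothelium-like cells than in mesenchyme (3.43 ± 0.21 and 4.19 ± 0.21). Plau, encoding urokinase, a protease that can activate PDGF-D, was higher in the same pair (3.52 ± 0.81 and 3.805 ± 0.35). The counts for the list were 3 higher and 3 lower of 13 in perivascular-like cells (17.3% of all genes, median -0.47 against -0.17) and 5 higher and 6 lower of 14 in endothelium-like cells (57.2% of all genes, -0.33 against -0.03). In epithelium-like cells 1 was higher, St14, encoding matriptase, another activator of PDGF-D (3.70 ± 0.40), and 9 were lower of 14 (36.5% of all genes, median -1.41 against -0.04). In cycling pulp cells 2 were higher and 5 lower of 12 (33.5% of all genes, -0.37 against -0.02), with Plat, encoding the tissue plasminogen activator that cuts PDGF-C, at -2.01 ± 0.22.

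Of the 29 genes of receptor signaling (adaptors, phosphatidylinositol 3-kinase, Src family and mitogen-activated kinases), 19 were higher and 4 lower of 29 tested in endothelium-like cells (median 0.51), where 57.2% of all genes passed. They were led by Pik3cb, a catalytic subunit of phosphatidylinositol 3-kinase (3.97 ± 0.37). The other contrasts gave 3 higher and 0 lower of 28 in perivascular-like cells (17.3% of all genes passed), 4 and 5 of 29 in epithelium-like cells (36.5%), 4 and 4 of 28 in follicle-like cells (36%), 5 and 8 of 28 in odontoblast-like cells (34.5%) and 0 and 9 of 28 in cycling pulp cells (33.5%). Stat3, a transcription factor below the receptors, was the lowest of the last 9 (-1.01 ± 0.14).

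Among the 12 genes of receptor attenuation (phosphatases, ubiquitin ligases and Sprouty proteins), Spry4, an inhibitor of receptor tyrosine kinase signaling, was higher in perivascular-like cells (2.96 ± 0.32), odontoblast-like cells (1.90 ± 0.54) and cycling pulp cells (1.87 ± 0.18), and lower in epithelium-like cells (-1.76 ± 0.32). The counts of higher and lower genes of 12 were 3 and 0 in perivascular-like (17.3% of all genes passed), 7 and 3 in endothelium-like (57.2%), 3 and 2 in epithelium-like (36.5%), 2 and 3 in follicle-like (36%), 4 and 1 in odontoblast-like (34.5%) and 6 and 1 in cycling pulp cells (33.5%). Many ligands other than PDGF act through these shared genes.

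Dissociation stress genes stand beside these results. Of 10 such genes 5 were higher and 0 lower in perivascular-like cells (17.3% of all genes passed), 5 and 2 in endothelium-like (57.2%), 1 and 7 in epithelium-like (36.5%) and 1 and 2 in follicle-like cells (36%). Of 9 tested, 0 were higher and 1 lower in odontoblast-like cells (34.5%), and 1 higher and 2 lower in cycling pulp cells (33.5%). Their part in the member values was not tested.

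The genes most like each member were taken over 44 sums of a class in a library with at least 20 cells, by Pearson's r of log2(CPM + 1), among 11578 genes. The sums share libraries and base the value on differences between classes, so r is a description. Pdgfra was nearest to the stromal matrix genes Dcn (0.93), Serpinf1 and Lum and to Cdh11. Pdgfrb was nearest to Ednra (0.89), the endothelin receptor of mural cells, Cald1, Fbn1 and Tpm2. Pdgfb was nearest to Cracr2b (0.88) and to Nostrin, Cav2, Zbtb46 and Ahr, Pdgfd to Hapln3 (0.85), Fat4, Hapln1, Mpzl1 and Sdk2, Pdgfc to Plcd1 (0.84), Enpp1, Dmpk, Rrbp1 and P4ha1, and Pdgfa to Phldb1 (0.86), Cspg4, Dag1, Spsb1 and Raph1.

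The study asks what loss of Din does to the incisor mesenchyme, and none of the 6 members passed the test between genotypes there. On simulated counts this test (edgeR) recovered only 4% of 2-fold and 52% of 4-fold changes. A member that did not pass may therefore still differ. In mesenchyme-like cells Pdgfra was 145 and 206 CPM in the WT libraries and 157 and 171 CPM in the Din-KO libraries (log2 fold change of Din-KO over WT -0.14 ± 0.24, SE). Pdgfrb was 53.6 and 98.9 CPM in WT and 74.5 and 87.2 CPM in Din-KO libraries (0.05 ± 0.34). The Din-KO values lay within the WT range for both receptors.

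The ligands overlapped between genotypes as well. Pdgfd was 68.5 and 35.5 CPM in WT and 48.0 and 32.4 CPM in Din-KO libraries (-0.41 ± 0.41). Pdgfa was 11.9 and 30.9 CPM in WT and 14.5 and 37.1 CPM in Din-KO libraries (0.23 ± 0.65), and Pdgfc 10.5 and 46.4 CPM against 11.9 and 37.1 CPM (-0.26 ± 0.88). Both ligands were higher in replicates 2, whatever the genotype. Pdgfb, near 0 in mesenchyme, had -0.04 ± 1.16.

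All 6 adjusted p-values were 1.00 (edgeR, 2 Din-KO against 2 WT libraries), and the smallest unadjusted p was 0.37. Of 15194 genes tested in mesenchyme-like cells, 0 passed (0%), 158 had an unadjusted p under 0.05, and DESeq2 called 16, none of them a member. No member had both Din-KO libraries above or both below both WT libraries in mesenchyme, where 11.5% of genes had them above and 6.32% below. Leaving out 1 library changed the sign of the value for each of the 6 members. Such a fit also sets unequal numbers of replicates 1 and 2 against each other, so its sign cannot decide a direction. Between libraries of the same replicate number, Pdgfa was higher and Pdgfd lower in Din-KO both times, and the other members changed direction. The labels name no pairing, and no direction is read from 2 libraries per genotype. Over genes, libraries of the same replicate number deviated together in these cells (r = 0.789). The test without a block does not account for that.

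**Figure D5:**
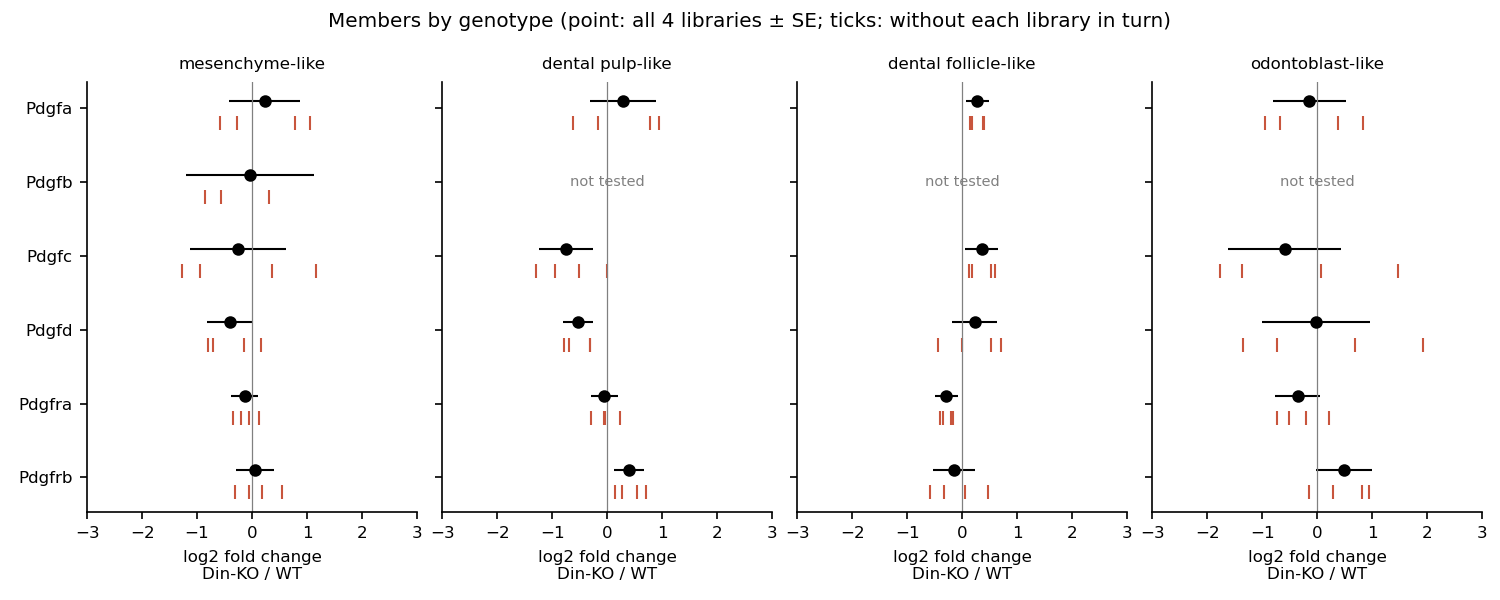
log2 fold change of Din-KO over WT (x axis) for each member (y axis) in mesenchyme-like cells and in the dental pulp-, dental follicle- and odontoblast-like cells among them. Points with SE bars use all 4 libraries and ticks leave out 1 library in turn. Points of mesenchyme-like cells lie between -0.41 and 0.23 with ticks on both sides of 0 for every member.

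By class the same held: no member passed in any of the other 9 classes with at least 20 cells in every library. The background was as low, with 0% of genes called in dental pulp-, odontoblast-, epithelium-, monocyte or dendritic-, B- and T or NK-like cells, 0.00771% in dental follicle-like, 0.0533% in endothelium-like and 0.0818% in macrophage-like cells. The filter left 5 members to test in pulp-, follicle- and odontoblast-like cells, 6 in endothelium-, epithelium- and macrophage-like cells, Pdgfb alone in monocyte or dendritic-like and T or NK-like cells and none in B-like cells. Perivascular-like and glia-like cells were too few to test. No gene of the PDGF or dissociation stress lists passed between genotypes in mesenchyme-like cells. The 10 dissociation stress genes had a median log2 value of 0.72 there, against -0.02 over all genes. Their median was 0.97 in epithelium-like and 0.65 in B-like cells. It was -0.05 in endothelium-like, -0.08 in monocyte or dendritic-like and -0.42 in macrophage-like cells. Their part in the member values was not tested. Of the 4 Y-linked genes, Ddx3y passed as higher in the Din-KO libraries in follicle-, endothelium- and macrophage-like cells and Eif2s3y in macrophage-like cells. The 4 genes had a median log2 value of 11.9 in mesenchyme-like and 10.7 in dental pulp-like cells, and none passed there. Large differences thus also went uncalled. Between classes Ddx3y was higher in follicle than in pulp and Eif2s3y lower in endothelium than in mesenchyme.

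In dental pulp-like cells, Pdgfd was lower in both Din-KO libraries (67.3 and 50.04 CPM) than in both WT libraries (93.1 and 76.4 CPM), at log2 -0.53 ± 0.27 (adjusted p = 1.00, edgeR), where 11.6% of genes had both Din-KO libraries below both WT libraries and 10.6% above. This test had no block for the replicate number. With such a block Pdgfd passed, as did 327 of 13806 genes, but the labels name no shared batch or animal. The make-up of the pulp also differed, given for WT and Din-KO of replicates 1 and then 2. The Cldn10 cluster, high in Pdgfd, held 703, 426, 76 and 26 cells. The Vcan and Stc2 clusters, also high, held 555, 663, 97 and 59 and 206, 152, 5 and 7 cells. The Smoc2 and Tac1 clusters, low in Pdgfd, held 166, 445, 25 and 37 and 201, 410, 65 and 72 cells. The part of this make-up in the Pdgfd value was not tested. In dental follicle-like cells, Pdgfra was 155 and 144 CPM against 187 and 164 CPM (-0.29 ± 0.21), and Pdgfa 30.9 and 36.4 CPM against 24.1 and 29.4 CPM (0.27 ± 0.21), again without overlap and without a call (adjusted p = 1.00 each, edgeR). Pdgfc did not overlap there either (means of 15.3 CPM in Din-KO and 11.5 CPM in WT libraries) and was not called. In that class 8.3% of genes had both Din-KO libraries below and 15.3% above. In epithelium-like cells Pdgfb, Pdgfc and Pdgfrb were higher in both Din-KO libraries than in both WT libraries, as were 17.8% of genes. In macrophage-like cells Pdgfrb was lower in both, as were 15.9% of genes, and none of these members passed. Pdgfrb in endothelium-like cells was -1.13 ± 0.55 (adjusted p = 1.00, edgeR), a value set by WT replicate 2: without that library it was 0.00, and without WT replicate 1 it was -1.80.

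A test of whether the genotype effect differed between classes called 0 genes (0%) in each of 4 pairs of classes (99 to 340 genes at an unadjusted p under 0.05). Among these was 1 member, Pdgfrb in endothelium-like against mesenchyme-like cells, whose genotype value differed by log2 -1.02 ± 0.33 (adjusted p = 1.00, edgeR). The ratio of the receptors was also compared by genotype, over too few libraries for a test to pass. In mesenchyme-like cells the log2 ratio of Pdgfra to Pdgfrb was 1.25 ± 0.26 in WT and 1.02 ± 0.07 in Din-KO libraries (SD, n = 2 each), a difference of -0.23 (two-sided exact permutation p = 0.67, where 2 libraries against 2 cannot go below 0.33). The difference was -0.45 in dental pulp-like cells (exact permutation p = 0.33), -0.23 in dental follicle-like cells (p = 1 by the same permutation test) and -0.72 in odontoblast-like cells (exact permutation p = 0.33). In pulp-like and odontoblast-like cells both Din-KO ratios were below both WT ratios. After thinning the pulp difference was -0.083 (p = 1 by the same permutation test), so it did not hold there. Within the Xist cells the difference was -0.21 in mesenchyme-like, -0.49 in dental pulp-like and -0.041 in odontoblast-like cells, and the test across genes called 0 genes of 14187 in mesenchyme-like cells (edgeR, 137 at an unadjusted p under 0.05).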

How the data were processed

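The authors deposited raw UMI counts per gene and barcode for each library, made with Cell Ranger 6.0.2 (file header) against mm10, with no normalization. They dissociated the proximal tissue with liberase and DNase, removed dead cells and used a 10x 3′ v3.1 kit. Over all barcodes the totals were 50423655 and 32198098 counts in the WT libraries and 54348039 and 33076212 in the Din-KO libraries.

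The study's filters were used: cells needed 1000 or more genes, no more than 10% of counts from mitochondrial genes and no more than 3% from hemoglobin genes. Seurat 5.3.0 integrated the libraries on 2000 variable genes and 30 principal components, with the 6 PDGF genes dropped from the variable genes, and clustered at a resolution of 1. Scores of the S and G2M phases were regressed out before clustering. A cluster was named from marker lists, and 2 of 32 stayed unnamed. Scrublet called 0.875% of cells as doublets, and these were kept. Free RNA was not removed.

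Sums of UMIs per library and class went into the quasi-likelihood test of edgeR 4.0.16, after TMM scaling and filterByExpr, with p-values adjusted by Benjamini-Hochberg. The design for genotype had no covariate, and that for classes had the library as a block. Alternatives were size factors of DESeq2 or total counts, DESeq2 1.42.0, no filter, each library left out, the replicate number as a block, other clustering, cells thinned to 2000 UMIs, and cells of high doublet score left out. Cells with Xist alone, an unnamed cluster added to its nearest class and phases compared within 1 cluster were alternatives chosen after seeing the data. The methods were tested on simulated counts. Intervals and limits for a count of 0 (3 counts) cover counting error only. Coordinates came from the GENCODE annotation of GRCm38, which held 99.6% of the gene identifiers.

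The text names the 6 members, and of 5 lists (ligand processing and binding, receptor signaling, receptor attenuation, dissociation stress, Y-linked) the counts and some of up to 5 genes with the largest fold in each direction, and up to 5 genes most like each member; some genes are not reported here. The members and lists were chosen with earlier results of these data known. Clusters, Dspp, Rgs5 and mast cell transcripts were named after their values were seen.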

Additional observations from a re-analysis of the deposited data

Results flagged for a closer look

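Of 56 groups of 4 libraries, each 1 member in 1 class, 2 had a library far from the other 3, where chance gives about 1 in 20. Pdgfa in perivascular-like cells was 129 CPM in WT replicate 2, from 28 UMIs in 18 cells, against 360 to 388 CPM in the other libraries. Pdgfrb in endothelium-like cells was 102 CPM in WT replicate 2, from 145 UMIs in 101 cells, against 27.0 to 29.0 CPM in the other libraries, and the perivascular markers were higher in the same cells, as given with its level.

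PDGF genes were also counted in the 2 unnamed clusters, which belong to no class compared in the report; the first was added to mesenchyme-like cells as an alternative. In the 574 cells led by Ifitm1, Kit, Stbd1 and Hey1 the mean levels over libraries were 8.59 CPM for Pdgfa, 41.0 for Pdgfc, 69.0 for Pdgfd, 121 for Pdgfra and 38.0 for Pdgfrb. In the 45 cells led by S100a4, Jdp2, Mt1 and Nrgn they were 22.1 CPM for Pdgfa (6 UMIs), 40.3 for Pdgfra (7 UMIs) and 38.5 for Pdgfrb (4 UMIs).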

How the results depend on the processing

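The contrasts between classes kept their direction for every called member. Of 326 alternatives for the 27 called pairs of a member and a contrast, 308 kept the call, 18 lost it and none reversed, and 19 pairs kept it under all. Counts of genes called between classes fell with depth: cells thinned to 2000 UMIs gave 971 (perivascular), 4108 (endothelium), 2159 (epithelium), 2008 (follicle against pulp), 1315 (odontoblast) and 1296 (cycling). Leaving out 1 library gave 3037 to 4184 for epithelium, 2208 to 3307 for odontoblast and 2403 to 3823 for cycling cells. Clusters at a resolution of 0.5 gave 5829 for odontoblast and 1520 for cycling cells, and cycling cells without the library as a block gave 1252. Members that had not passed changed sign: Pdgfa in endothelium was -0.031 without the block, -0.080 thinned and -0.11 to 0.46 without 1 library. Pdgfra in follicle was -0.033 and Pdgfrb -0.093 at a resolution of 0.5, with -0.14 to 0.12 for Pdgfra without 1 library, and Pdgfra in cycling cells was 0.19 at that resolution. Total counts in place of TMM moved the median log2 value of all genes in epithelium from -0.04 to -0.38, in odontoblast from -0.04 to -0.36 and in perivascular-like cells from -0.17 to -0.02, and no call of a member but that of Pdgfd in endothelium (adjusted p = 0.055, edgeR) was lost.

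For genotype in mesenchyme-like cells, DESeq2 called 16 genes, no filter 7, the replicate block 58 and leaving out 1 library 0 to 4, with no member called. Without 1 library, Pdgfa ranged from -0.59 to 1.06, Pdgfb from -0.86 to 0.31, Pdgfc from -1.28 to 1.16, Pdgfd from -0.81 to 0.17, Pdgfra from -0.35 to 0.13 and Pdgfrb from -0.30 to 0.55. Pdgfb was 0.0072 at a resolution of 0.5 and Pdgfrb -0.033 in thinned cells. In the other classes 1 member passed without the filter (Pdgfrb in endothelium, adjusted p = 0.042, edgeR, where 199 of 18373 genes passed). Under the replicate block 1 passed (Pdgfd in pulp, log2 -0.53 with adjusted p = 0.041, edgeR, where 327 of 13806 genes passed). Without 1 library, Pdgfrb in endothelium ranged from -1.80 to 0.0042. Libraries with the same replicate number deviated together (r = 0.789 over genes). The labels name no shared batch, so what these libraries share is not known, and the genotype test without a block does not account for it. The difference in receptor ratio in mesenchyme ranged from -0.41 to -0.04 under every alternative. The causes were not tested. Cell number limits the perivascular-like and glia-like values, with 10 to 45 cells in a library.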
